A study of Mus musculus with 12 samples.

Results

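The 10 genes described here are feedback and target genes of fibroblast growth factor (FGF) and ERK signalling, followed through the differentiation of mouse embryonic stem cells. They were taken by their gene symbols in the platform's probe annotation, which gave 10 genes and 13 probes of 15967 genes and 24613 probes on the array. The genes fall into 3 roles: the feedback inhibitors Spry2, Spry4, Spred1 and Dusp6, the PEA3 group ETS transcription factors Etv1, Etv4 and Etv5, and the immediate early transcription factors Fos, Egr1 and Egr4. All 10 were measured on 12 Illumina BeadChip arrays of the mouse embryonic stem cell line W9.5 at day 0, day 4, day 8 and day 15 of differentiation, with 3 arrays per day. The labels give every array, those of day 0 included, the same treatment, which is activin A, then retinoid acid (as the labels spell it), then retinoid acid with fibroblast growth factor, ending in pancreatic progenitor cells. They do not say which agent was present on which day. They do not say whether the 3 arrays of a day came from separate cultures either, so the p-values measure only the spread between these arrays, which may be technical.

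FGF ligands bind receptor tyrosine kinases and, through adaptor proteins and RAS, activate the kinase ERK. ERK activity switches on immediate early genes within minutes and, more slowly, genes for ETS factors and for inhibitors that feed back on the pathway, so that the RNA of these genes is commonly used as a readout of the pathway. In mouse embryonic stem cells this signalling is driven largely by FGF4 that the cells secrete, and it moves them out of the naive pluripotent state. RNA levels alone do not measure kinase activity, and ERK activity was not analysed here.

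Between 11253 and 12554 probes were detected on single arrays (detection p-value under 0.05), and the median scanner intensity lay between 71.2 and 86.3. Levels below are log2 intensities after background correction and quantile normalization, with an offset of 16 that compresses changes of dim probes, so a level is compared across days at 1 probe and never between genes. Array signals near background cannot be ranked: the lowest signal of any detected probe, called the floor, lay between 5.04 and 5.33 on this scale. A gene was called changed at an adjusted p-value under 0.05 (limma, Benjamini-Hochberg over all 9657 genes tested). Since each array measured a whole culture, a smaller share of cells expressing a gene and less of its RNA per cell cannot be told apart. Of 9 tested naive and core pluripotency markers, 8 were detected on all 3 day 0 arrays (Dppa3 on 1), and of 10 endoderm markers 7, with Gata4, Gata6 and Sox17 among them, were also detected on all 3, while Foxa2, Afp and Ttr were detected on none.

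All 10 genes were lower on day 15 than on day 0, as were 35.6% of all genes tested. By the day and the size of the largest fall between successive days, 3 courses could be told apart. Fos, Egr1, Egr4 and Etv4 fell by more than 4-fold by day 4. Etv1, Etv5, Spry4 and Dusp6 had their largest fall between day 4 and day 8, and Spry4 also had a smaller called fall by day 4. Spry2 and Spred1 had a smaller fall, of under 2-fold, by day 4. They differ from the first group by size alone, at dim probes whose changes the offset compresses. Fos and Egr1 then rose again by day 15. Each of the 10 genes changed over the 4 days (limma's moderated F-test, adjusted p between 1.2e-12 for Etv4 and 0.00077 for Spry2), against 75.2% of all genes tested. For Egr4 this is no independent result, since it passed the detection filter through its day 0 arrays alone. The range of the 4 day means was 4.30 for Etv4, wider than that of 98.9% of the tested genes, and 0.97 for Spry2, wider than that of 56.7%.

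**Figure D1:**
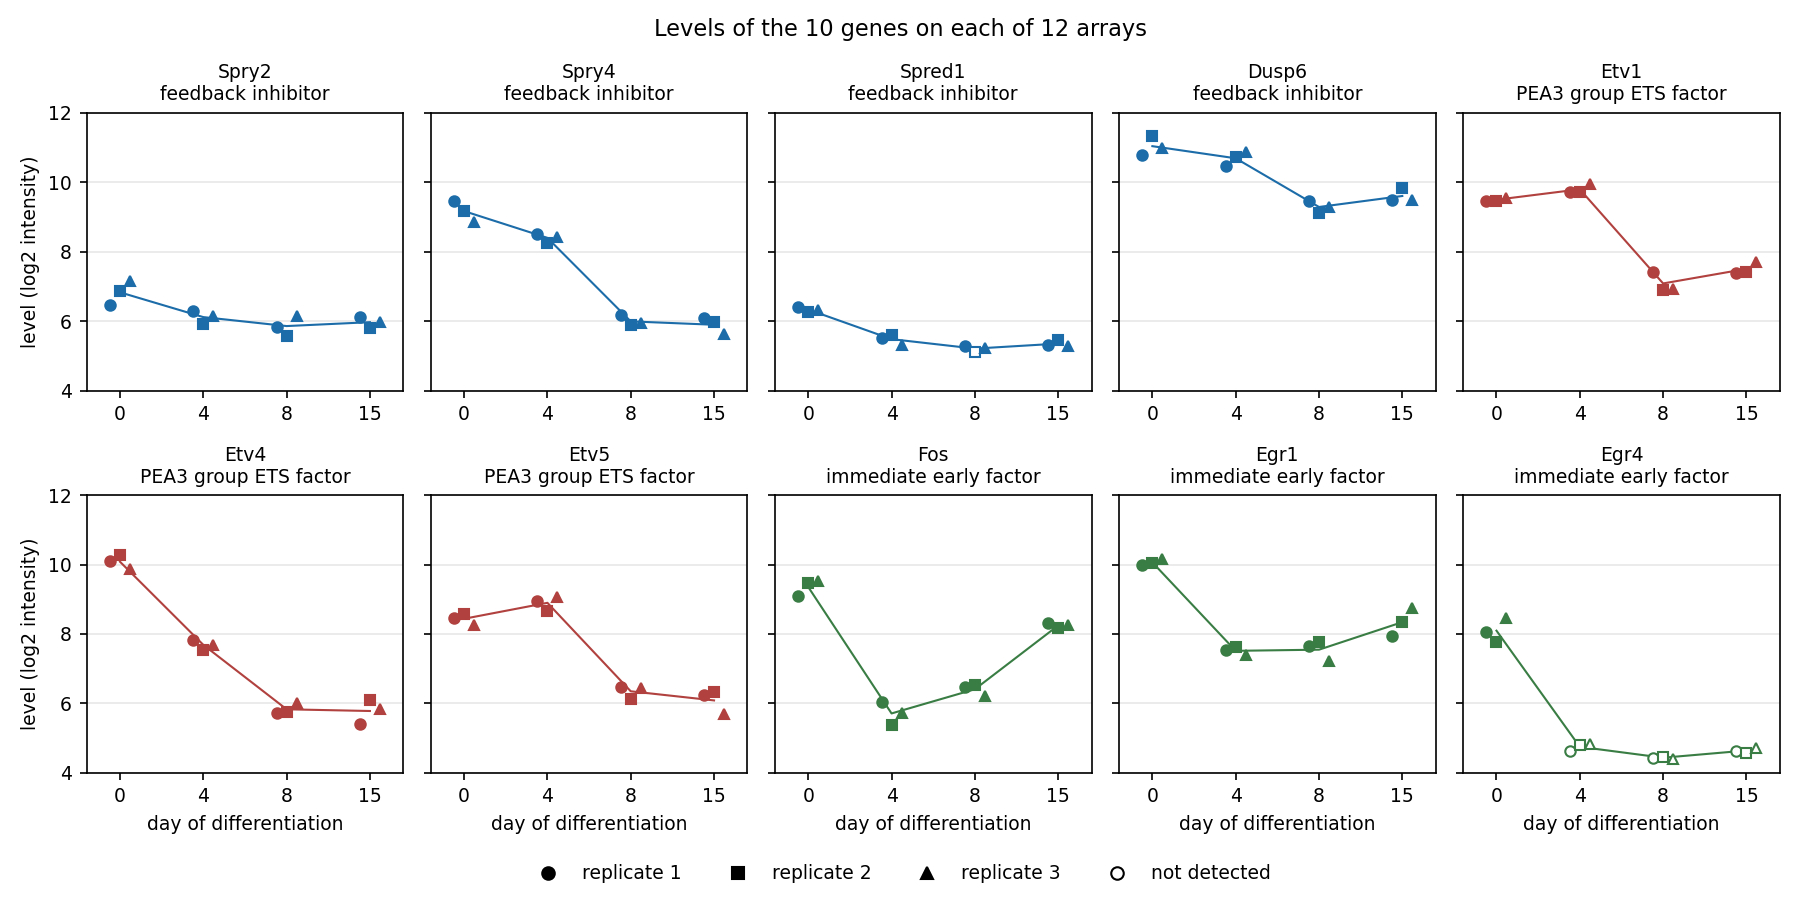
Level (log2 intensity) of each of the 10 genes on the 12 arrays against the day of differentiation; marker shapes are the 3 replicates, open markers are arrays on which the probe was not detected, and lines join the day means. Etv4, Fos, Egr1 and Egr4 dropped by day 4, Etv1, Etv5, Spry4 and Dusp6 between day 4 and day 8, and Fos and Egr1 were higher again on day 15.

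The immediate early factors are switched on without new protein synthesis. Fos encodes a subunit of the AP-1 transcription factor, and Egr1 and Egr4 encode zinc finger factors of the early growth response family. The promoters of Fos and Egr4 are shown because these genes had the largest falls of the first step. The reference sequences (RefSeq, GRCm38.p6, the 250 bases before the transcription start, on the gene's strand) lie at chr12:85473640-85473889 (plus strand) for Fos and chr6:85513590-85513839 (minus strand) for Egr4, with that of the feedback gene Dusp6, at chr10:99262981-99263230 (plus strand), beside them. Capitals mark the core of the cAMP response element, TGACGT (written ACGTCA where it lies on the opposite strand), and the TATA box letters TATAA.
Fos: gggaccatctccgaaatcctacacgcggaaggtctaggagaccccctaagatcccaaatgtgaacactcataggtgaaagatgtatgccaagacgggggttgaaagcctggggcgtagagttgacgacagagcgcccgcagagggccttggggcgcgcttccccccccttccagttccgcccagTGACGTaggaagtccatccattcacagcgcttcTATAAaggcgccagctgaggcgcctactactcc
Egr4: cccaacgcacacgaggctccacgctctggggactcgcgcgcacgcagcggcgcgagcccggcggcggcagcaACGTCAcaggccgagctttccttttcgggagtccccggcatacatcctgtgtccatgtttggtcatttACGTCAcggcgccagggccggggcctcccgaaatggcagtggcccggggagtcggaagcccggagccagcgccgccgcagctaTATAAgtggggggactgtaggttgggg
Dusp6: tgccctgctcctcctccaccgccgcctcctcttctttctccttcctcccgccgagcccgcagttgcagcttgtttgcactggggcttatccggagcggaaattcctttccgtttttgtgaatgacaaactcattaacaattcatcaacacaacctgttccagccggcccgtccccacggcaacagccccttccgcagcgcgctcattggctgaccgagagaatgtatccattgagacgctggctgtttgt
Fos holds TGACGT from 66 to 61 bases and TATAA from 33 to 29 bases before the start. Egr4 holds TGACGT on the opposite strand from 178 to 173 and from 110 to 105 bases, and TATAA from 27 to 23 bases. Both motifs were chosen after the sequences had been read. Of 32851 mouse promoters, 6.47% hold TGACGT and 22.8% hold TATAA in the same 250 bases on either strand. Another 5 motifs were searched on both strands. For ETS factors the letters were CCGGAA, held by 12% of the promoters. For the full cAMP response element they were TGACGTCA, which contains the core, held by 1.55%. For AP-1 they were TGANTCA, held by 6.75%. For EGR factors they were GCGNGGGCG, held by 4.70%. The CArG box of serum response factor was held by 1.47%. None of these 5 was found in the 9 promoters of the 7 members in the table (Spry2, Spred1, Dusp6, Etv1, Etv5, Fos and Egr4), which says only that the letters are not in these windows. TATAA alone was found in 1 of the Etv1 promoters, on the opposite strand.

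Fos lay at 9.09, 9.46 and 9.51 on the day 0 arrays, at 6.04, 5.38 and 5.71 on day 4, at 6.48, 6.52 and 6.22 on day 8 and at 8.32, 8.16 and 8.25 on day 15. The 4 days did not overlap at any point, and all 3 arrays of day 15 stood between those of day 8 and day 0. Fos was 12.5-fold lower on day 4 than on day 0 (-3.64 ± 0.18 on the log2 scale with its SE, 3 arrays each, limma adjusted p = 7.1e-11). On day 8 it was higher than on day 4 by 0.70 ± 0.18 (adjusted p = 0.0028), and it was 3.57-fold higher on day 15 than on day 8 (1.84 ± 0.18, adjusted p = 4.5e-07). On day 15 it was still 2.16-fold lower than on day 0 (-1.11 ± 0.18, adjusted p = 2.7e-05).

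Egr1 lay at 9.98, 10.05 and 10.16 on day 0, at 7.52, 7.63 and 7.38 on day 4, at 7.65, 7.78 and 7.21 on day 8 and at 7.95, 8.33 and 8.74 on day 15. The arrays of days 4 and 8 overlapped, and every other pair of days was separate. It was 5.85-fold lower on day 4 than on day 0 (-2.55 ± 0.19, adjusted p = 1.4e-08), and day 8 differed from day 4 by 0.03 ± 0.19 (adjusted p = 0.896). Egr1 was 1.73-fold higher on day 15 than on day 8 (0.79 ± 0.19, adjusted p = 0.0046) and 3.30-fold lower than on day 0.

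Egr4 lay at 8.06, 7.77 and 8.45 on day 0, and its probe was detected on none of the 9 later arrays, where it read between 4.40 and 4.84. Egr4 passed the detection filter through its day 0 arrays alone, so it could enter the test only with a fall. Day 4 was at least 7.44-fold lower than day 0 (fitted log2 change -3.35 ± 0.16), and day 15 at least 8.14-fold lower. No p-value is given for these falls, because the filter fixed their direction. No fold is given between the later days. The rise of Fos from day 8 to day 15 exceeded that of Egr1 by 1.04 and that of Egr4 by 1.63 on the log2 scale, and the within-array differences did not overlap between the days. For both, the exact two-sided permutation p was 0.1, the smallest that 3 arrays against 3 allow, and 0.1 after adjustment over 5 pairs of genes chosen after the values were seen. With arrays of days 15 and 8 paired by replicate number, the difference was above 0 in 3 of 3 pairs for both, and the exact sign-flip p was 0.25, the smallest that 3 pairs allow. The probe of Egr4 was under the floor on both days, so the difference from it is a difference of signals and not of measured levels.

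Of 22 other immediate early factors, all with a probe, 15 were tested. From day 0 to day 4, 2 rose and 5 fell, against 14.7% and 12.3% of all genes. Fosb, a relative of Fos, was at least 2.00-fold lower and detected on no day 4 array, and Zfp36, an RNA-binding protein, fell by 0.71 ± 0.14. Atf3, a stress-induced factor, was at least 1.40-fold higher. From day 4 to day 8, 7 rose and 3 fell, and the largest change was the 27.4-fold fall of Klf2 (-4.78 ± 0.12). From day 8 to day 15, 6 rose, against 12.6% of all genes. The largest rises were those of Klf2 (2.60 ± 0.12), Atf3 (1.00 ± 0.21) and Fosl2 (0.60 ± 0.15). With median scaling 4 of the 15 rose in that step and 1 fell. Of 9 naive and core pluripotency genes, 7 fell and 2 rose from day 4 to day 8, and 6 rose and 1 fell from day 8 to day 15. Whether the changes of Klf2 belong with these or are an immediate early response was not tested. On day 15, 8 of the 15 were higher than on day 0 and 4 were lower, whereas Fos, Egr1 and Egr4 were all lower. Of the 6 tested genes of stress and cell dissociation, 2 rose and 1 fell in the last step, and the stress factor Ddit3 was 4.03-fold higher. The summed intensity of these 6 genes was between 8358 and 8646 on day 0, between 9588 and 10012 on day 4, between 7233 and 7502 on day 8, and between 7788 and 8017 on day 15. Its part in the rise of Fos and Egr1 was not tested.

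The PEA3 group ETS factors bind DNA at the end of the pathway and are themselves induced by FGF. Etv4 parted from Etv1 and Etv5 in the first step. It lay at 10.11, 10.27 and 9.86 on day 0, at 7.83, 7.54 and 7.68 on day 4, at 5.73, 5.76 and 6.0 on day 8 and at 5.41, 6.09 and 5.84 on day 15. Days 0, 4 and 8 were separate from each other, while days 8 and 15 overlapped. Etv4 was 5.26-fold lower on day 4 than on day 0 (-2.39 ± 0.18, adjusted p = 1.8e-08) and fell by a further 1.86 ± 0.18 to day 8 (3.62-fold, adjusted p = 1.1e-07). Over the whole course it was 19.7-fold lower on day 15 than on day 0 (-4.30 ± 0.18, adjusted p = 1.2e-12).

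Etv1 lay at 9.47, 9.47 and 9.57 on day 0, at 9.73, 9.72 and 9.96 on day 4, at 7.43, 6.91 and 6.94 on day 8 and at 7.39, 7.43 and 7.70 on day 15. Its day 4 arrays were all above those of day 0, but the difference of 0.30 ± 0.16 did not pass the test (adjusted p = 0.17). Etv1 was 6.55-fold lower on day 8 than on day 4 (-2.71 ± 0.16, adjusted p = 1.4e-10). From day 8 to day 15 it differed by 0.42 ± 0.16 (adjusted p = 0.0642), and this was called higher when arrays were paired by replicate number (adjusted p = 0.0312 with that block) and when day 8 replicate 1 was left out (0.0127).

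Etv5 lay at 8.46, 8.59 and 8.26 on day 0, at 8.96, 8.66 and 9.07 on day 4, at 6.48, 6.12 and 6.45 on day 8 and at 6.25, 6.32 and 5.69 on day 15. The day 4 arrays were again all above those of day 0 (0.46 ± 0.18, adjusted p = 0.0763). Etv5 was called higher on day 4 with an offset of 50 (adjusted p = 0.0403), and with only the 6 arrays of these days (0.0498). It was 5.85-fold lower on day 8 than on day 4 (-2.55 ± 0.18, adjusted p = 2.9e-09), and day 15 overlapped day 8 (-0.26 ± 0.18, adjusted p = 0.358). The change of Etv4 from day 0 to day 4 minus that of Etv1 was -2.70 on the log2 scale, and minus that of Etv5 it was -2.85, with no overlap of the within-array differences (exact two-sided permutation p = 0.1 for each, 0.1 adjusted over the 5 pairs).

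**Figure D2:**
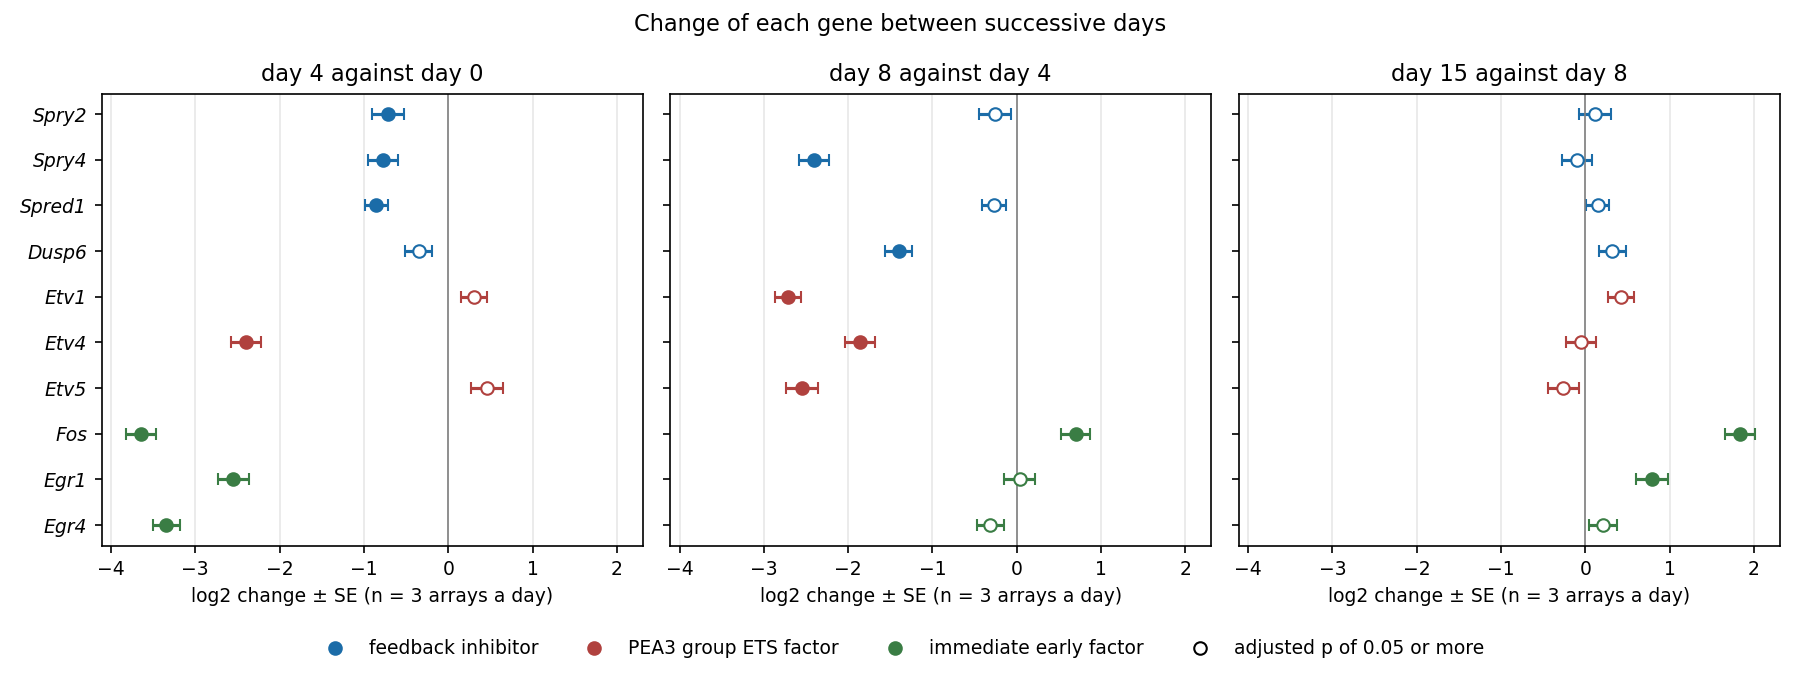
Log2 change with its standard error between successive days (3 arrays per day) for the 10 genes, coloured by role; open markers did not pass the adjusted p-value of 0.05. Etv4 moved with the immediate early factors by day 4, at -2.39, and all 3 ETS factors were lower by day 8.

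The feedback inhibitors act at different points. Spry2 and Spry4, of the Sprouty family, and Spred1, which brings neurofibromin to RAS, act upstream of ERK, and Dusp6 is a phosphatase that removes activating phosphates from ERK itself. Spry4 lay at 9.48, 9.18 and 8.86 on day 0, at 8.51, 8.26 and 8.43 on day 4, at 6.17, 5.89 and 5.94 on day 8 and at 6.10, 5.98 and 5.62 on day 15. Its first 3 days were separate and days 8 and 15 overlapped. Spry4 fell by 0.77 ± 0.18 to day 4 (adjusted p = 0.0033) and was 5.30-fold lower on day 8 than on day 4 (-2.41 ± 0.18, adjusted p = 3.7e-09). On day 15 it was 9.66-fold lower than on day 0.

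Dusp6 lay at 10.80, 11.35 and 10.99 on day 0, at 10.47, 10.74 and 10.88 on day 4, at 9.48, 9.11 and 9.29 on day 8 and at 9.49, 9.84 and 9.50 on day 15. Days 0 and 4 overlapped, and both stood above all arrays of the later days. The difference between day 4 and day 0 was -0.35 ± 0.16 (adjusted p = 0.119), and was called with median scaling (0.0312) and when day 0 replicate 1 was left out (0.0495). Dusp6 was 2.64-fold lower on day 8 than on day 4 (-1.40 ± 0.16, adjusted p = 8.6e-07). Day 15 differed from day 8 by 0.32 ± 0.16 (adjusted p = 0.184). The probe was detected on all 12 arrays.

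Spry2 lay at 6.48, 6.88 and 7.15 on day 0, at 6.29, 5.92 and 6.15 on day 4, at 5.85, 5.59 and 6.16 on day 8 and at 6.13, 5.82 and 5.97 on day 15. The day 0 arrays were above all others, and the 3 later days overlapped. Spry2 fell by 0.71 ± 0.19 to day 4 (1.64-fold, adjusted p = 0.0096), a call lost when day 0 replicate 3 (adjusted p = 0.0574) or day 4 replicate 2 (0.0508) was left out. Day 8 differed from day 4 by -0.26 ± 0.19 (adjusted p = 0.274), and day 15 was 1.82-fold lower than day 0 (adjusted p = 7.3e-04). The change of Spry4 from day 4 to day 8 minus that of Spry2 was -2.15 on the log2 scale (exact two-sided permutation p = 0.1, 0.1 adjusted over the 5 pairs). Spry2 stood at a mean of 6.12 on day 4, and the mean floor on day 8 was 5.16. It had little room to fall as Spry4 did, so no conclusion is drawn from this difference.

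Spred1 lay at 6.42, 6.28 and 6.31 on day 0, at 5.53, 5.61 and 5.32 on day 4, at 5.29, 5.13 and 5.22 on day 8 and at 5.33, 5.46 and 5.29 on day 15. From day 4 on it stood close to the floor, and it was detected on 2 of the 3 arrays of day 8. Spred1 fell by 0.85 ± 0.14 to day 4 (1.81-fold, adjusted p = 1.5e-04), and day 8 differed from day 4 by -0.27 ± 0.14 (adjusted p = 0.107). Neither Spry2 nor Spred1 had a called change between successive days after day 4.

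By step, 7 of the 10 members (6 of the 9 other than Egr4) fell from day 0 to day 4, against 27.0% of all genes changed, 12.3% lower and 14.7% higher. The median log2 change of the members was -0.81 (-0.77 without Egr4), against -0.04 for all genes. At an unadjusted p under 0.05, 8 were lower and 1, Etv5, was higher. From day 4 to day 8, 5 fell and 1 rose, against 55.1% of all genes changed, 27.0% lower and 28.1% higher, with a median of -0.86 for the members (-1.40 without Egr4, which was undetected on both days) and -0.01 for all genes. From day 8 to day 15, 2 rose, against 22.0% of all genes changed, 12.6% higher and 9.39% lower, with a median of 0.18 for the members and -0.04 for all genes. With the replicate number as a block, Etv1 was called higher in that step as well. All 10 (9 of 9 without Egr4) were lower on day 15 than on day 0, against 67.5% of all genes changed, 35.6% lower and 31.9% higher, with a median of -1.86 for the members (-1.72 without Egr4) and -0.11 for all genes. Successive steps share the arrays of a day, so these counts are not independent of each other.

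Etv1 and Dusp6 were measured by several probes, and the brightest one stood for the gene above. The other 2 probes of Etv1 were detected on all arrays of days 0 and 4 and on no day 8 array, and 1 of them was detected on 1 array of day 15. Day 8 was at least 1.90-fold and at least 1.87-fold lower than day 4 at these probes (adjusted p = 2.6e-04 and 3.0e-05, limma fit over all detected probes). Their course after day 8 lies under the floor and cannot be read. The second probe of Dusp6 lay near the floor on days 0 and 4, each with 2 of 3 arrays detected, and was detected on none of the later arrays. Day 8 was at least 1.06-fold lower than day 4 there (adjusted p = 0.0198), so this probe adds little to the values of the brighter one.

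**Figure D3:**
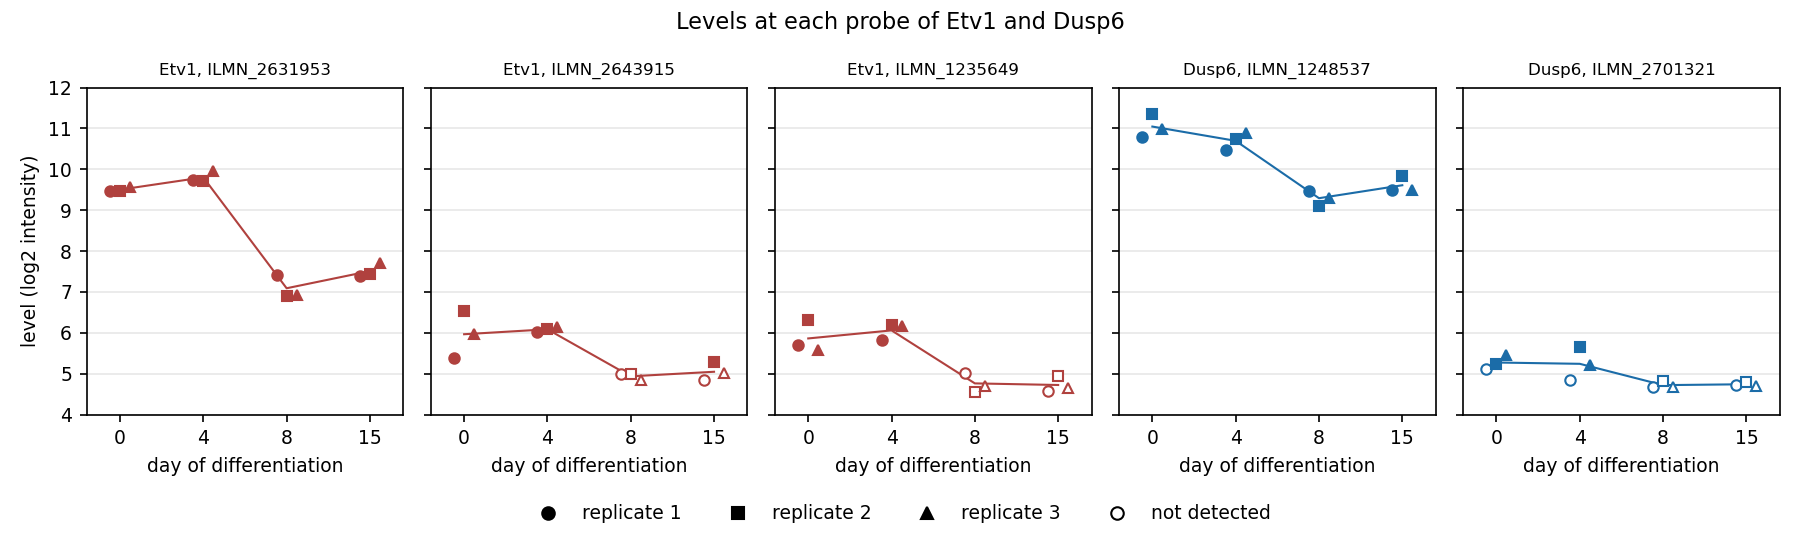
Level (log2 intensity) at each of the 3 probes of Etv1 and the 2 of Dusp6 against the day of differentiation, with the 3 replicates as marker shapes, open markers where the probe was not detected, and lines through the day means. Every probe was lower on day 8 than on day 4; the 3 dimmer probes were detected on none of the day 8 arrays.

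The authors' deposited log2 values, which carry no background subtraction, gave a smaller change in the same direction for every change that was called. Over days 0, 4, 8 and 15, Fos averaged 9.35 ± 0.19, 6.66 ± 0.19, 7.10 ± 0.11 and 8.45 ± 0.06 in that table (SD, n = 3). Egr1 averaged 9.97 ± 0.07, 7.89 ± 0.09, 7.92 ± 0.22 and 8.53 ± 0.31. Egr4 averaged 8.37 ± 0.25 on day 0 and at most 6.03 ± 0.12 after it. In these values, as in the background-corrected ones, Fos and Egr1 were lowest on day 4 and higher again on day 15. Etv4 averaged 9.99 ± 0.19, 8.02 ± 0.12, 6.73 ± 0.09 and 6.70 ± 0.20. Etv1 averaged 9.49 ± 0.04, 9.73 ± 0.11, 7.59 ± 0.22 and 7.88 ± 0.11. Etv5 averaged 8.63 ± 0.14, 8.97 ± 0.17, 7.06 ± 0.14 and 6.89 ± 0.21. The early fall of Etv4 and the later one of Etv1 and Etv5 were present without background correction. Spry4 averaged 9.21 ± 0.27, 8.57 ± 0.11, 6.83 ± 0.10 and 6.77 ± 0.15. Dusp6 averaged 10.87 ± 0.26, 10.53 ± 0.19, 9.31 ± 0.14 and 9.59 ± 0.18. Spry2 and Spred1 had the narrowest ranges of day means here too, from 6.75 to 7.42 and from 6.38 to 7.07.

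Other genes of the pathway were grouped by role. Their counts are to be read beside the shares of all genes called in each step, given above with the members. Of 22 FGF family genes, 21 had a probe and 10 were tested. The 10 include Fgf12 and Fgf13, which stay inside the cell and are not secreted ligands. From day 0 to day 4, 5 of the 10 were called higher, 1 of them, Fgf21, with no detected array on either day, which leaves 4. Fgf4, the ligand that embryonic stem cells secrete, averaged 6.82 ± 0.18 on day 4 and 6.08 ± 0.20 on day 0 (log2 change 0.74 ± 0.15). It was then detected on no array of day 8 or day 15, and day 8 was at least 3.17-fold lower than day 4. Fgf5 and Fgf15 had their highest means on day 4, 10.50 ± 0.12 and 10.90 ± 0.01. Fgf8 was detected on 0, 2, 3 and 0 arrays of days 0, 4, 8 and 15, and its rise from day 4 to day 8 lost its call in the authors' values. Fgf10 was 2.19-fold higher on day 8 than on day 4. In that second step 3 of the 10 rose, Fgf12 among them, and 3 fell, beside a lower call for Fgf21 between undetected days. In the third 2 rose, Fgf13 and Fgf21, and 3 fell. Over the whole course 5 rose, Fgf12, Fgf13 and Fgf21 among them, and 2 fell. Fgf21 passed the detection filter through its day 15 arrays alone, so its rises to day 15 are no independent result. The fall of Fgf2 over the whole course was lost in the authors' values, with median scaling and with an offset of 50.

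Of 10 receptors and coreceptors, 6 were tested. Fgfr1 and Fgfr4 did not pass the detection filter, and Fgfr2 and Fgfr3 stayed near the floor, with day means between 4.75 and 5.39. The coreceptor Klb, which binds endocrine FGFs, averaged 7.84 ± 0.05, 9.25 ± 0.09, 10.65 ± 0.18 and 9.40 ± 0.09 over the 4 days, and Flrt3, a membrane protein that binds FGF receptors, 7.01 ± 0.09, 8.47 ± 0.39, 10.81 ± 0.28 and 10.27 ± 0.21. Of the 6, 2 rose by day 4 and 3 from day 4 to day 8, when 5 of the 10 members fell. From day 8 to day 15 1 rose and 2 fell, and 5 of the 6 were higher on day 15 than on day 0. Of 22 adaptors and kinases of the cascade, 14 had a probe and 12 were tested. Of these, 2 fell in the first step, in which 12.3% of all genes were lower. In the second 3 rose, against 28.1% of all genes. Over the whole course, in which the share of all genes called was 67.5%, 5 rose and 2 fell. In the last step limma called 0 of the 12, with 1 higher at an unadjusted p under 0.05.

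Other feedback inhibitors did not follow 1 course. Of 19 listed, 15 had a probe and 11 were tested: 2 rose and 4 fell in the first step, 4 rose and 3 fell in the second, 2 rose and 1 fell in the third, and 2 rose and 3 fell over the whole course. Lgals3bp, which is not an established inhibitor of this pathway, was in the list and among the risers of each of these counts. On day 15 it was at least 14.3-fold higher than on day 0. Spred2, a relative of Spred1, was detected on no array of day 15 or day 8, against a mean of 5.53 ± 0.15 on day 0. Dusp4, an ERK phosphatase of the nucleus, was 2.34-fold lower on day 8 than on day 4 (-1.23 ± 0.13), and Dusp9, another ERK phosphatase, was 6.76-fold higher (2.76 ± 0.24). Il17rd, a membrane inhibitor of FGF signalling, rose by 0.91 ± 0.13 to day 4. Of 18 other ERK targets, 16 had a probe and 11 were tested, with 2 higher and 4 lower in the first step, 6 higher and 5 lower in the second, 3 higher and 1 lower in the third and 4 of each over the whole course. Gbx2, a homeobox factor of the naive state, was 8.74-fold lower on day 8 than on day 4 (-3.13 ± 0.13) and 6.56-fold higher on day 15 than on day 8 (2.71 ± 0.13).

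**Figure D4:**
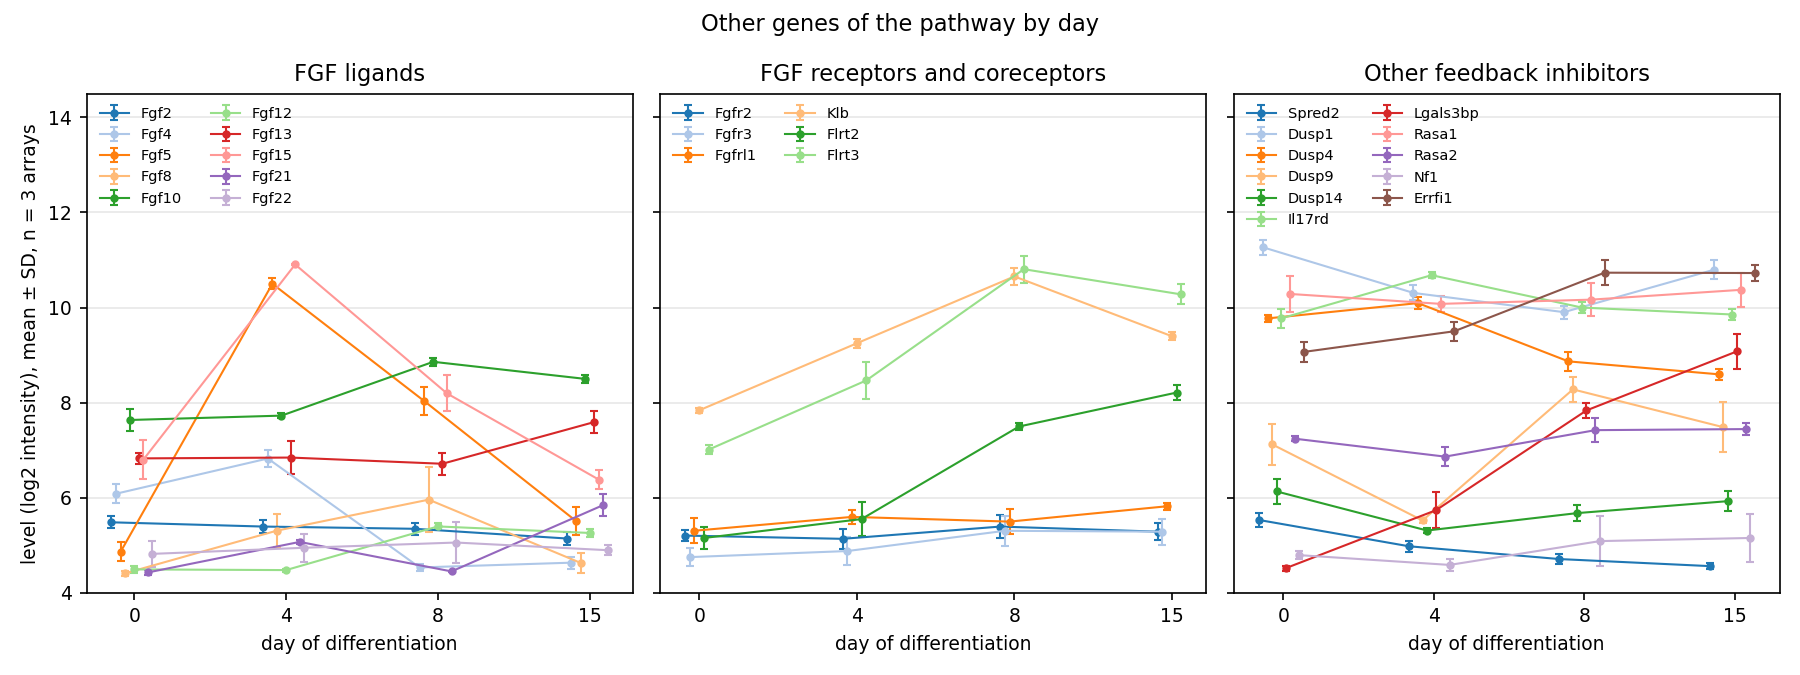
Day means (log2 intensity, error bars SD, n = 3 arrays) of the tested FGF family genes, receptors and coreceptors, and other feedback inhibitors against the day of differentiation. The panel of FGF ligands also holds Fgf12 and Fgf13, which are not secreted ligands. The panel of other feedback inhibitors also holds Lgals3bp, which is not an established inhibitor of this pathway. Fgf5 and Fgf15 peaked on day 4, Klb and Flrt3 on day 8, and Dusp4 and Dusp9 moved in opposite directions between day 4 and day 8.

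Markers of cell state moved over the same days. The shares of all genes called in each step, given above with the members, apply to these counts too. Of 9 naive and core pluripotency genes, 5 fell in the first step and 7 fell and 2 rose in the second. In the third 6 rose and 1 fell, and with median scaling 4 rose and 1 fell. Their summed intensity was between 29189 and 36822 on day 0, between 17613 and 20447 on day 4, between 7397 and 7604 on day 8 and between 10039 and 10298 on day 15. The fall of Dppa3 in the second step lay between days without a detected array. Of 6 tested primed epiblast genes, all rose in the first step and all fell in the second. One of them, Lef1, was detected on the day 4 arrays alone and passed the detection filter through them. Its rise and fall are therefore no independent result. Of 10 endoderm markers, 6 rose in the first step and 9 in the second, and 1 rose and 5 fell in the third. Of 6 cell cycle genes, all fell in the second step, and 5 with median scaling, where Ccna2 lost its call. Of 9 mesenchyme and fibroblast genes, 5 rose and 0 fell from day 8 to day 15, the step in which Fos and Egr1 rose. Their sum was between 20999 and 25347 on day 15 and between 7824 and 8966 on day 8. Such a sum is set mostly by its brightest genes, here Acta2 and Vim, with day 15 means of 13.45 and 12.95. Of 3 tested neural markers, 2 rose in that last step, with a sum between 505 and 663 on day 15 and between 108 and 128 on day 8. The brightest of them on day 15 was Dcx, at a mean of 8.82, which was detected on no array of day 8 or of the earlier days. Dcx passed the detection filter through its day 15 arrays alone, so it could enter the test only with a rise. The sum on day 15 is set mostly by it. Of the 3 tested endothelium and blood genes, 2 rose in that step, Cdh5 and Tek, while Pecam1 was detected on no day 8 array and on 1 of day 15. Their sum was between 587 and 980 on day 15 and between 190 and 228 on day 8. Pax6 and Sox1 of the neural list and Kdr, Ptprc and Gata1 of the endothelium and blood list did not pass the detection filter. The part of any of these in the changes of the members was not tested.

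Within the 10 genes, day profiles were compared by the root mean square difference of the 4 day means after centring each gene on its own mean. Spry2 and Spred1 were the closest pair (0.06 on the log2 scale), followed by Etv1 and Etv5 (0.25), while Etv5 and Fos were the farthest apart (1.98). Fos and Egr1 differed by 0.62. Among 4045 other tested genes with a range of day means of at least 1, the 2 closest to each member over the 4 days were Nup210 and D1Pas1 for Dusp6 (0.01 and 0.03), Bnc2 and Camk2b for Etv1, Plcg2 and Pmm1 for Etv5, Steap1 and Rad9b for Spry4, Ppm1j and Urah for Etv4, Mrpl39 and Trim37 for Spry2, and Ube4a and Ucp1 for Spred1. For Egr1 they were Gpx2 and Bcl3, and for Egr4 Ceacam1 and E2f2. Fos had the most distant neighbours, Insl3 (0.40) and Cxcl1 (0.60).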

How the data were processed

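The values came from 12 Illumina BeadChip arrays of biotin-labelled cRNA, with 3 arrays on each of 4 days. The deposited scanner table holds an intensity per probe, which per the file headers comes with a detection p-value and is neither normalized nor background-subtracted. The authors' deposited value table holds log2 intensities that rise with the scanner intensity within each array (rank correlation 1), have array medians between 6.27 and 6.30 and equal its plain log2 on day 15 replicate 2. How they were normalized is not stated in the labels or headers.

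The scanner intensities were processed with neqc of limma 3.58.1 in R 4.3.3 (offset 16). Probes were kept if at least 3 of 12 arrays detected them, at a p-value under 0.05 (13421, of which 11787 named 1 gene). The table of probes and genes names 1 gene for 20984 probes, several for 1 and none for 3628. The probe with the highest mean stood for its gene, leaving 9657 genes. All arrays entered 1 linear model with a mean per day and 8 residual degrees of freedom, with limma's eBayes (trend on) and Benjamini-Hochberg adjustment over all genes. Where the dimmer day had no detected array, the fold is a lower bound against the higher of the floor and the probe's own signal on each of its arrays. The fit and the motif search were tested on simulated data. Of lists other than the members, up to 4 called genes with the largest change were eligible to be named, and some others are named for their levels, chosen after their values were seen. Members and lists were chosen with earlier results of these data known.

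Replicate numbers were checked as pairs. For day 15 against day 8 and against day 0, deviations from the day means correlated by 0.34 to 0.50 between arrays of 1 number. The numbers were therefore taken to pair those arrays. For the comparisons with day 4 the lowest was -0.06, and the numbers were not taken as pairs. The main calls come from the model without the replicate number, and the member calls that it changed as a block are given below. Promoters are from RefSeq (GRCm38.p6), with 7 of the 10 members in the table used here. Precision is limited by having 3 arrays per day.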

Additional observations from a re-analysis of the deposited data

How the results depend on the processing

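Each of the 40 log2 changes of the members was recomputed under 16 alternative settings that apply to it, of 22 in all, which gave 640 values. For called changes, 398 values kept the call, 2 lost it, both for Spry2 on day 4, and 0 reversed. For changes that were not called, 225 values stayed so and 8 gained a call, and these concern Dusp6, Etv1, Etv5 and Egr4. Egr4 was called lower on day 8 than on day 4 in the authors' values (adjusted p = 0.00506), where it was not detected on either day. The direction turned for 7 values, none called in either setting: Egr1 from day 4 to day 8 (-0.03 without day 4 replicate 3, -0.02 without day 8 replicate 1, -0.082 without day 8 replicate 2), and from day 8 to day 15 Etv4 (0.14 without day 15 replicate 1, 0.04 without day 8 replicate 3), Spry2 (-0.026 without day 8 replicate 2) and Spry4 (0.042 without day 15 replicate 3). Over all single arrays left out, these changes ranged from -0.082 to 0.20 for Egr1, -0.20 to 0.14 for Etv4, -0.026 to 0.26 for Spry2 and -0.20 to 0.042 for Spry4. The cause was not tested.

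Leaving out 1 array gave 6 to 8 called members for day 4 against day 0, 6 for day 8 against day 4, 2 or 3 for day 15 against day 8 and 10 for day 15 against day 0. The genes called then numbered 2082 to 2345, 4779 to 4994, 1697 to 1894 and 6073 to 6220, and 7038 to 7179 for the change over the 4 days. For 10 of the 12 arrays, deviations from the day means correlated best, on average, with arrays of other days that carried the same replicate number. The replicate number as a block changed the calls of Etv1 (day 15 against day 8, adjusted p = 0.0312) and Etv5 (day 4 against day 0, adjusted p = 0.0473) and of no other member. Under 3 other scalings, the median change of all genes moved by at most 0.06, and 0 of the called changes of the other lists turned direction, but some lost the call: for day 15 against day 0, 7 of 93 with median scaling, 6 in the authors' values and 2 with an offset of 50, for day 15 against day 8 4 of 52 with median scaling, and in the other cases at most 3. The slide as a block was not run, because no slide is given for the arrays used here. Dim probes limit Spry2, Spred1 and Egr4.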
